A study of Homo sapiens with 6 samples.

Results

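The mRNAs of the translation initiation, elongation and release factors were examined in a native ORC1 RIP-seq experiment, by comparing ORC1 immunoprecipitates (ORC1 IP) with inputs. Members were taken by gene symbol: every row whose symbol begins with EIF or EEF followed by a digit, and the release factors ETF1, GSPT1 and GSPT2. Of the 130 rows found in this way, 64 with pseudogene symbols, 2 antisense genes, EIF4A3 and, because their symbols end like those of pseudogenes, the 3 eIF4E-binding protein genes were left out. This left 60 of 23013 rows, and all 60 were protein-coding in GENCODE v44. In 57 members the normalised counts averaged 10 or more across the libraries, and these were tested together with all 16513 genes that passed this filter.

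HCT116 is a human colorectal cancer cell line, and the cells were untreated and, by the study's methods, dividing without synchronisation. In RIP-seq a protein is drawn from a lysate with an antibody and the RNA that comes with it is sequenced. Here nuclear lysate gave 3 inputs, taken without antibody, and 3 IPs with an antibody against ORC1, the subunit of the origin recognition complex that is the first to sit on chromatin at replication origins. Each input shares a RIP replicate number with an IP, but the labels do not say whether the replicates came from separate cultures, so that p-values measure the spread between these samples, which may be technical.

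With a control IgG the study recovered too little RNA to detect, and no control antibody library was analysed here, so the background per gene was not measured. Reads on genes ranged from 13703033 to 17248924 in inputs and from 25134156 to 36008733 in ORC1 IPs (exact permutation test, two-sided, p = 0.1, which is the lowest possible p with 3 against 3). Single libraries held between 38 and 166787 reads of a tested member, with a median of 2994. Of 8 epithelial markers, 6 had a mean of at least 10, with KRT8 at 6930.4 to 82363 in the libraries, whereas VIL1 was at 6.30 or less. Of 5 blood cell markers only CD14 had a row, and it was at 5.81 or less in any library. Of 5 fibroblast markers 2 had rows. Among them COL1A1 was at 161 to 298 in inputs and 432 to 787 in ORC1 IPs (log2 fold change 1.27 ± 0.39, adjusted p = 0.0854, limma). Of 4 endothelial markers 2 had rows, and they summed to at most 64.1 in any library.

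Translation starts when a small ribosomal subunit carrying the initiator tRNA, delivered by eIF2, is brought to the capped end of an mRNA by eIF4F and eIF3 and scans to the start codon. After eIF5B has joined the large subunit, eEF1A delivers aminoacyl-tRNAs and eEF2 moves the ribosome along, until eRF1 and eRF3 release the finished protein. These proteins work mainly in the cytoplasm. The mRNAs measured here are those found in a nuclear lysate, because the study isolated nuclei for the RIP.

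The translation factor mRNAs did not move together. No member passed an adjusted p under 0.05 in either direction (limma on log2(normalised count + 1), Benjamini-Hochberg over all tested genes), against 2.28% of all genes called higher and 1.42% called lower. At an unadjusted p under 0.05, 13 members passed, 6 with higher and 7 with lower levels in the ORC1 IP, which is 22.8% of the members and 21.6% of all genes. By other tools, edgeR on the recovered reads called 1 member higher and none lower, against 2.57% and 1.36% of all genes, and DESeq2 called 6 higher and 3 lower, against 7.73% and 4.12%. The log2 fold change was above 0 in 22 of the 57 members (38.6%, against 50.7% of all genes), and its median was -0.12, against 0.01 over all genes. A log2 fold change here compares recovery with the antibody to the input and is not a difference in expression between cells. Since bulk lysate was sequenced, recovery from more cells and higher recovery per cell cannot be told apart.

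The study called an RNA enriched when its log2 fold change exceeded 1 and its unadjusted p was under 0.05. Applied here to limma, this placed 6 members on the enriched side, against 10.9% of all genes. These were EIF5B, EIF4G3, EIF2S2, EIF3J, EIF2A and EIF2AK4. On the opposite side, with a log2 fold change under -1, lay EIF6, EIF3I, EIF4A1, EIF5AL1, EIF2B2 and EIF3K, 6 members against a background of 7.25%. In limma each count is 10.5% of the tested members. The study itself used DESeq2, which here, on recovered reads, placed 9 members on the enriched side and 6 on the opposite side. The 9 were those named above with EIF3A, EIF3C and EIF4G1. With edgeR the counts were 8 and 6, and EIF4G1 was not among the 8. The opposite side held the same members in all of these fits. The share of all genes past this threshold was not taken in DESeq2 or edgeR. Those on the enriched side encode proteins of initiation or its control, and those on the opposite side do so apart from EIF5AL1, a relative of the elongation factor eIF5A. Most tested members are of this kind. By the groups used here, the others are 3 eIF5A genes, 5 eEF1 genes, 2 genes of eEF2 and its kinase, and 2 release factor genes. It is not known from the sources used here whether reads were counted by strand, and 37 of the 57 members overlap a gene on the other strand, among them each of the 6 on the enriched side and, on the opposite side, EIF3I and EIF2B2.

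**Figure D1:**
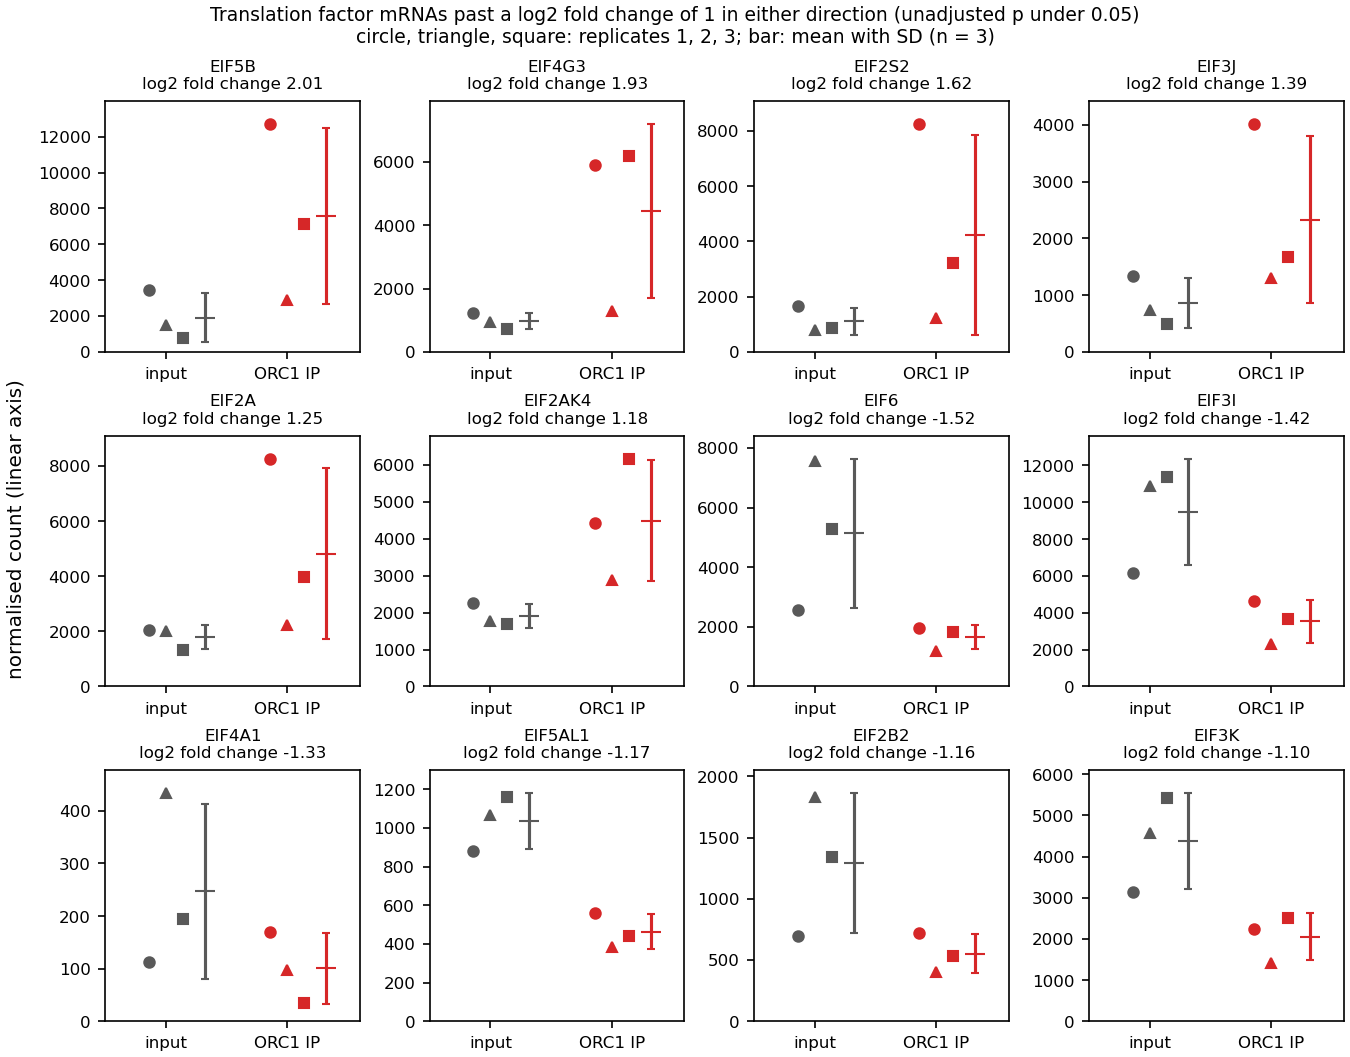
Normalised counts (linear vertical axes) of the 12 translation factor mRNAs past the threshold of the study in limma, with inputs in grey, ORC1 IPs in red, replicates 1, 2 and 3 as circle, triangle and square, and bars for mean and SD (n = 3). Among the first 6 panels the ORC1 IP 2 triangle is the lowest of the 3 IPs in every panel, and only EIF4G3, EIF2A and EIF2AK4 have all IPs above all inputs.

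The cap-binding complex eIF4F held the member with the smallest adjusted p among those with higher levels in the IP. EIF4G3 (ENSG00000075151, chromosome 1, 20806292 to 21177285) encodes eIF4GII, a scaffold that ties the cap-binding protein to the helicase and to eIF3. Its normalised counts were 1229, 939 and 730.2 in inputs 1, 2 and 3, and the IPs with these numbers stood at 5893, 1292 and 6187. All IPs lay above all inputs, although ORC1 IP 2 exceeded the highest input only narrowly. The log2 fold change was 1.93 ± 0.56 (SE, n = 3 per group) with an adjusted p of 0.0708 in limma. It passed an adjusted p under 0.05 with a replicate block in limma (adjusted p = 0.0499), in edgeR (adjusted p = 0.0469) and in DESeq2 (adjusted p = 0.00187), but not in edgeR with the block (adjusted p = 0.0780) or after correction for GC content and transcript length, without the block (adjusted p = 0.102, limma) or with it (adjusted p = 0.130). Over all alternatives its adjusted p ranged from 0.000606 to 0.3501. It was the only member past the enriched-side threshold of the study whichever single library was left out.

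EIF4G1 (ENSG00000114867, chromosome 3, 184314495 to 184335358), the major eIF4G scaffold, showed a wide gap between replicates. The inputs were at 19722, 30251 and 23814 and the ORC1 IPs at 137995, 8314 and 103334. ORC1 IPs 1 and 3 were thus several times above every input, while ORC1 IP 2 was the lowest of all 6 libraries. The mean was 24596 ± 5308 (SD) in inputs and 83214 ± 67141 in IPs, and the log2 fold change of 1.02 ± 1.15 had an adjusted p of 0.657 (limma). Without ORC1 IP 2 it became 2.30 ± 0.46 with an adjusted p of 0.00463.

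The remaining eIF4F genes included members on both sides. EIF4E (ENSG00000151247, chromosome 4, 98879276 to 98929133), which encodes the cap-binding protein, had 665, 589 and 489 normalised counts in inputs and 358, 383 and 323 in IPs. All 3 IPs lay below all inputs, with a log2 fold change of -0.70 ± 0.33 and an adjusted p of 0.241 (limma). EIF4A2, an isoform of the RNA helicase of eIF4F, had log2 fold changes of 0.09, 0.52 and 0.44 in replicates 1, 2 and 3. EIF4A1, the main isoform of that helicase, was measured at only 113, 433 and 194 in inputs and 170.4, 97 and 35 in IPs, where groups overlapped. Its transcript shares all of its stretches of 50 bases with other annotated genes, among them the read-through gene SENP3-EIF4A1, so its counts and its log2 fold change of -1.33 ± 0.61, which is past the study's threshold, are uncertain. EIF4G2, which encodes an eIF4G relative that lacks the cap-binding protein's site, stood at 22071 ± 4285 (SD, n = 3) in inputs and 24233 ± 9832 in IPs, with a log2 fold change of 0.07 that turned negative when libraries were scaled by total count.

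The genes of the eIF2 subunits had values in both directions. EIF2S2 (ENSG00000125977, chromosome 20, 34088309 to 34112243), which encodes the beta subunit, had 1676, 775 and 854 normalised counts in inputs and 8246, 1207 and 3223 in IPs. ORC1 IP 2 fell within the range of the inputs, and the other IPs lay above it. The log2 fold change was 1.62 ± 0.60 (adjusted p = 0.141, limma). By contrast, EIF2S1, for the alpha subunit whose phosphorylation shuts down initiation, had 4341, 5462 and 3861 in inputs and 4937, 1859 and 4756 in IPs, and EIF2S3, for the GTP-binding gamma subunit, had 4226, 4436 and 3570.0 in inputs and 2680.5, 2733 and 3367 in IPs. For EIF2S3 all IPs lay below all inputs (log2 fold change -0.48 ± 0.40, adjusted p = 0.526, limma), and for EIF2S1 the groups overlapped (-0.36 ± 0.49). EIF2S2 and EIF2S3 share 23.5% and 20.1% of their 50-base stretches with other genes, mostly pseudogenes or, for EIF2S3, the retrogene EIF2S3B.

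EIF2A (ENSG00000144895, chromosome 3, 150546678 to 150586016) encodes a separate protein that can bring initiator tRNA to the ribosome and is not a subunit of eIF2. Its normalised counts were 2065, 2008 and 1313 in inputs and 8264, 2222 and 3977 in IPs. All IPs lay above all inputs, ORC1 IP 2 by the smallest margin, and the log2 fold change was 1.25 ± 0.50 (adjusted p = 0.166, limma).

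Among the 4 kinases that phosphorylate eIF2 alpha, EIF2AK4 (ENSG00000128829, chromosome 15, 39934115 to 40035591), which encodes the amino acid sensor GCN2, had the highest log2 fold change. It had 2265, 1778 and 1680.3 normalised counts in inputs and 4429, 2873 and 6163 in IPs. The IPs did not overlap with the inputs, and the log2 fold change of 1.18 ± 0.42 had an adjusted p of 0.129 (limma). The log2 fold changes were 0.63 ± 0.46 for EIF2AK1, the haem-regulated kinase, 0.13 ± 0.38 for EIF2AK2, the double-stranded RNA sensor PKR, and -0.12 ± 0.37 for EIF2AK3, the endoplasmic reticulum stress sensor PERK. EIF2AK3 had 233 to 452 normalised counts in the libraries, with overlapping groups.

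The 5 subunits of eIF2B, the factor that recharges eIF2 with GTP, had a median log2 fold change of -0.03. EIF2B2 (ENSG00000119718, chromosome 14, 75002921 to 75012366), a regulatory subunit, was the lowest, with 697, 1834 and 1342 in inputs and 719.6, 398 and 534 in IPs. Input 1 lay within the range of the IPs, and the other inputs lay above it (log2 fold change -1.16 ± 0.42, adjusted p = 0.129, limma). EIF2B4, the highest, had a log2 fold change of 0.20 ± 0.55 and the replicate values 1.81, -1.52 and 0.31. In all 5 subunits ORC1 IP 2 was the lowest of the IPs.

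**Figure D2:**
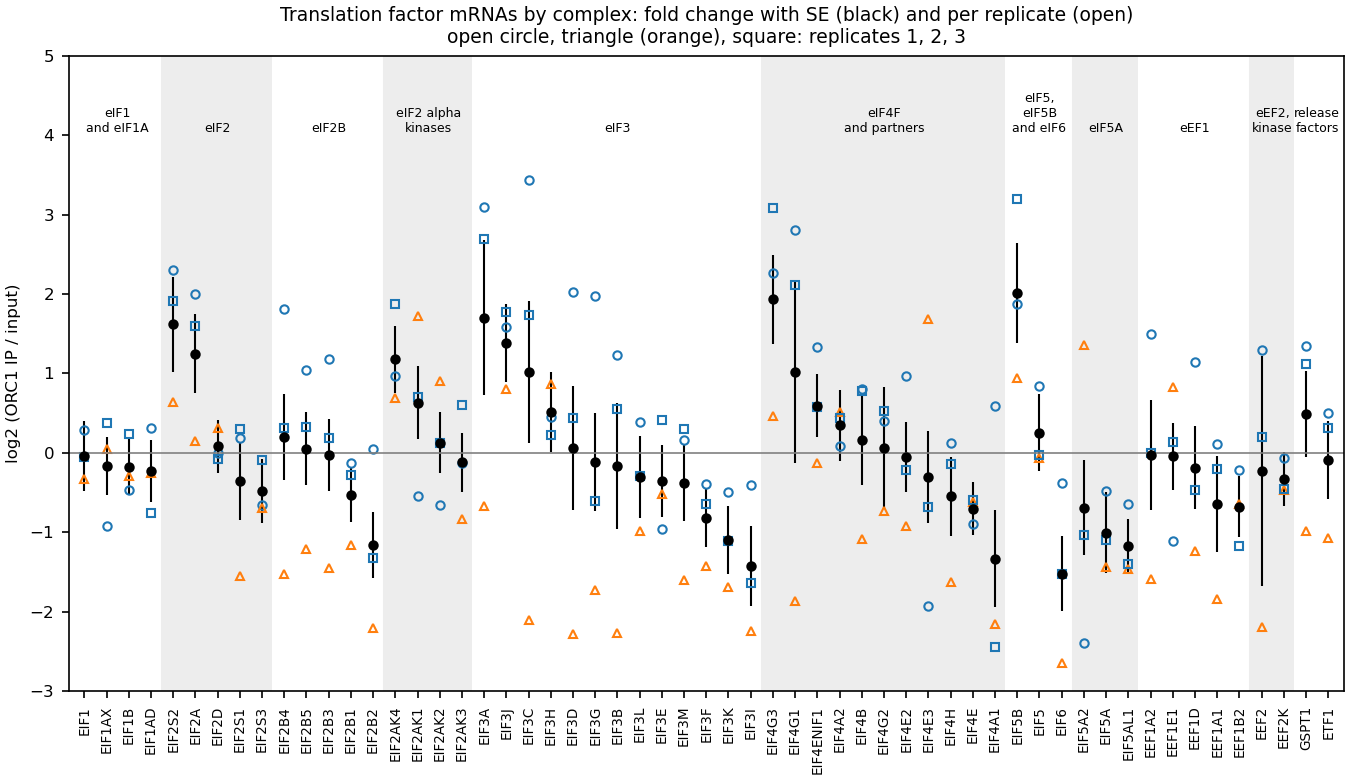
Log2 ratio of ORC1 IP to input (vertical axis) for the 57 tested members, ordered by complex: black points with SE bars are the limma fold changes, and open symbols are replicates 1 (circle), 2 (orange triangle) and 3 (square). Within eIF3 the fold changes run from -1.42 (EIF3I) to 1.70 (EIF3A), and the replicate 2 triangle often lies on the other side of 0 from the remaining replicates.

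The scaffold complex eIF3 had the most members, and their fold changes ran from -1.42 to 1.70 with a median of -0.16 over 13 tested subunits. At the top, EIF3A (ENSG00000107581, chromosome 10, 119033670 to 119080817), for the largest subunit, had 14407, 15648 and 9421 normalised counts in inputs and 122695, 9801 and 60717 in IPs. ORC1 IPs 1 and 3 lay far above the inputs, while ORC1 IP 2 lay at their lower end. The log2 fold change was 1.70 ± 0.98 (adjusted p = 0.339, limma), and 2.75 ± 0.47 without ORC1 IP 2 (adjusted p = 0.00177).

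EIF3J (ENSG00000104131, chromosome 15, 44537125 to 44563029), for a loosely bound subunit that helps the complex onto the small ribosomal subunit, had 1338, 745 and 489 in inputs and 4015, 1304 and 1672 in IPs. Its groups overlapped in that input 1 exceeded ORC1 IP 2 (log2 fold change 1.39 ± 0.49, adjusted p = 0.124, limma). Each IP was above the input of its own number, but the numbers of inputs 1 and 2 are in doubt. If these are crossed, this does not hold for ORC1 IP 2. At the other end, EIF3I (ENSG00000084623, chromosome 1, 32221077 to 32245397), for a WD-repeat subunit, had 6136, 10874 and 11389 in inputs and 4640.2, 2305 and 3673 in IPs, and EIF3K (ENSG00000178982, chromosome 19, 38619082 to 38636955), for a small peripheral subunit, had 3136, 4574 and 5431 in inputs and 2233, 1422 and 2507 in IPs. In both, every IP was below every input. The log2 fold changes were -1.42 ± 0.50 (adjusted p = 0.124) and -1.10 ± 0.42 (adjusted p = 0.155) in limma.

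The core subunit EIF3B went up or down with the replicate, with log2 ratios of 1.23, -2.27 and 0.55 in replicates 1, 2 and 3. EIF3C, another core subunit, gave 3.44, -2.11 and 1.73. These values rest on few reads, 109, 169 and 78.4 normalised counts in inputs and 1187, 38.3 and 263 in IPs. EIF3C and EIF3CL are near-identical copies on chromosome 16 that share 98.8% of the EIF3C transcript in 50-base stretches. EIF3CL itself was at 0, 9.46 and 2.34 in inputs and 9.21, 1.16 and 4.47 in IPs and was not tested.

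Among factors of subunit joining, EIF5B (ENSG00000158417, chromosome 2, 99337371 to 99401326), the GTPase that joins the large subunit, had the highest log2 fold change of all members. Its normalised counts were 3462, 1511 and 772 in inputs and 12713, 2914 and 7109 in IPs. Input 1 exceeded ORC1 IP 2, so the groups overlapped. Each IP exceeded the input of its number, but this does not hold for ORC1 IP 2 if the doubtful numbers of inputs 1 and 2 are crossed. The log2 fold change was 2.01 ± 0.63 (adjusted p = 0.0917, limma), and 2.58 ± 0.51 without ORC1 IP 2 (adjusted p = 0.00428).

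EIF6 (ENSG00000242372, chromosome 20, 35278907 to 35284985), which encodes the factor that keeps the large subunit from joining too early, had the lowest log2 fold change. Inputs were at 2565, 7571 and 5267 and IPs at 1970.1, 1205 and 1827. Every IP was below every input, and the fold change was -1.52 ± 0.47 (adjusted p = 0.0891 in limma, 0.00982 in DESeq2, 0.0463 without ORC1 IP 2). An overlapping gene on the same strand shares 23.0% of the EIF6 transcript.

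The eIF5A genes, for the hypusine-bearing factor that relieves stalled ribosomes, had negative log2 fold changes in each of the 3 tested genes. EIF5A (ENSG00000132507, chromosome 17, 7306999 to 7312463) had 8754, 10597 and 12656 normalised counts in inputs and 6272, 3911 and 5913 in IPs, and EIF5AL1 (ENSG00000253626, chromosome 10, 79512533 to 79516440) had 880.0, 1065 and 1162 in inputs and 562, 386 and 438 in IPs. In both, every IP lay below every input. The log2 fold changes were -1.01 ± 0.51 (adjusted p = 0.279, limma) and -1.17 ± 0.34 (adjusted p = 0.0701, limma; 0.0271 in DESeq2). EIF5A2 went the other way in replicate 2, with log2 ratios of -2.39, 1.35 and -1.03. EIF6 and EIF5AL1 were the members past the depleted-side threshold whichever single library was left out.

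The EIF5A and EIF5AL1 values are not independent measurements, because the coding sequences are nearly the same. In GENCODE v44 both coding sequences have 465 bases and differ at 5 positions, an identity of 98.9%. Counted from 1 at the A of the start codon and with the EIF5A base first, the differences are C12T, C106T, C123G, A133G and G326C. The first 30 coding bases are shown to make the likeness visible, with the base at the first difference in capitals.
EIF5A: atggcagatgaCttggacttcgagacagga
EIF5AL1: atggcagatgaTttggacttcgagacagga
Of the EIF5A transcript, 36.8% of the 50-base stretches also occur in EIF5AL1, so a read from either gene may have been counted for the other or dropped.

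The scanning factors eIF1 and eIF1A, which keep the ribosome searching for the right start codon, had 4 tested genes with log2 fold changes between -0.23 and -0.04. EIF1 had 4999 ± 145 normalised counts (SD, n = 3) in inputs and 4948 ± 1051 in IPs, and EIF1AX, the gene on the X chromosome, had 596 ± 222 in inputs and 513 ± 71.8 in IPs. EIF1AD, whose protein resembles eIF1A, was at 1709 ± 384 in inputs and 1493 ± 480.2 in IPs. These differences were smaller than their standard errors from limma, which were 0.36 to 0.44.

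By normalised count EEF2 was the most abundant member, and none of the 7 tested eEF genes was past either threshold. EEF2 (ENSG00000167658, chromosome 19, 3976056 to 3985463), for the translocase, had 62274, 144909 and 108028 normalised counts in inputs and 152654, 31824 and 124300.5 in IPs. Its IPs lay both above and below the inputs, and the log2 fold change was -0.23 ± 1.45 (adjusted p = 0.947, limma). Per kilobase of transcript, its mean level of 33271 normalised counts in inputs was the highest of the members, ahead of 8441 for EIF5A and 6809 for EEF1A2. These rankings take the counts as given. Reads of members with near-identical copies, such as EEF1A1 and EIF5A, may have been dropped or counted elsewhere. EEF2K, for the kinase that inhibits eEF2, had 1221, 1209 and 1586 in inputs and 1172, 870.3 and 1159.6 in IPs, with every IP below every input but by little (log2 fold change -0.33 ± 0.34).

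The 2 genes for the tRNA carrier eEF1A were not tested against each other, and the ranges of 1 SE around their log2 fold changes overlapped. EEF1A1 (ENSG00000156508, chromosome 6, 73489308 to 73525587) had 9732, 16269 and 13217 in inputs and 10480.1, 4534 and 11497 in IPs (log2 fold change -0.65 ± 0.61, adjusted p = 0.583, limma). EEF1A2 (ENSG00000101210, chromosome 20, 63488013 to 63499239) had 8112, 15037 and 13069 in inputs and 22835, 5004 and 13087 in IPs, a log2 fold change of -0.03 ± 0.69 that became 0.18 in edgeR and DESeq2. In both genes the IPs overlapped the inputs. EEF1A1 shares 37.2% of its 50-base stretches with other genes, chiefly processed pseudogenes, whereas EEF1A2 shares none. EEF1B2, for a subunit of the exchange factor that recharges eEF1A, had 2935, 3209 and 3620.4 in inputs and 2519, 2062 and 1607 in IPs, with all IPs below all inputs (log2 fold change -0.68 ± 0.39, adjusted p = 0.336, limma).

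Release factor genes were not called. GSPT1 (ENSG00000103342, chromosome 16, 11868128 to 11916082), for the GTPase eRF3a, had 3651, 5502 and 3562 normalised counts in inputs and 9316, 2770.0 and 7716 in IPs, and ETF1 (ENSG00000120705, chromosome 5, 138506095 to 138543236), for the stop codon reader eRF1, had 5060.4, 6170.0 and 4024 in inputs and 7176, 2942 and 4981 in IPs. ORC1 IP 2 was the lowest of the 6 libraries for both. The log2 fold changes were 0.49 ± 0.54 and -0.09 ± 0.49 (adjusted p = 0.648 and 0.942, limma). The copy GSPT2 was listed at 2.11, 6.3 and 2.34 in inputs and 15, 2.9 and 10.4 in IPs, and EIF4E1B at 5.28, 6.3 and 5.85 and 1.15, 4.64 and 2.24, and neither was tested.

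In most members ORC1 IP 2 held the lowest value of the IPs. It did so in 42 of 57 members, against 40.3% of all genes, and the lowest of all 6 libraries in 33 members, against 25.7%. In eIF3, 12 of 13 tested subunits had their lowest IP value there. The values per replicate that follow depend on the labelled pairing, in which the numbers of inputs 1 and 2 are in doubt. Median log2 ratios of the members were 0.31, -0.92 and 0.19 in replicates 1, 2 and 3, while over all genes they were -0.01, 0.01 and 0.05. Higher levels in replicates 1 and 3 with a lower level in replicate 2 were seen in 17 members, against 15.3% of all genes, among them EIF3A, EIF3B, EIF4G1, EEF2 and GSPT1. The reverse, seen in 13.9% of all genes, occurred in 2 members, EIF5A2 and EIF4E3.

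All replicates had a positive log2 ratio in 8 members, against 19.8% of all genes, and a negative one in 11, against 19.2%. Complete separation of the groups was found with the IPs above the inputs in 3 members (EIF4G3, EIF2A and EIF2AK4), against 12.7% of all genes. It was found with the IPs below the inputs in 11 members, against 13.5%, namely EIF6, EIF3I, EIF5AL1, EIF3K, EIF5A, EIF3F, EIF4E, EEF1B2, EIF2B1, EIF2S3 and EEF2K.

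Without ORC1 IP 2, 9 members were called higher at an adjusted p under 0.05 (limma), against 11.9% of all genes, and 3 lower, against 6.38%. The 9 were EIF3A, EIF4G3, EIF5B, EIF2S2, EIF4G1, EIF3C, EIF3J, EIF2A and EIF2AK4, and the 3 were EIF6, EIF5AL1 and EIF5A2. Of the 6 members called higher with all libraries in DESeq2, EIF2AK4, EIF2A, EIF2S2, EIF4G3 and EIF5B also passed the threshold of the study in limma, and EIF3A did not. Of the 3 nuclear retained RNAs measured, MALAT1 was at 116695 normalised counts in ORC1 IP 2 against 10644 to 35633 in the other 5 libraries and NEAT1 at 4229 against 1462 to 3838, while KCNQ1OT1, at 194, lay within their range of 139 to 414. ORC1 IP 2 also differed in KRT8, which was at 6930.4 there against 22866 to 82363. The part of these differences in the members' values was not tested.

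**Figure D3:**
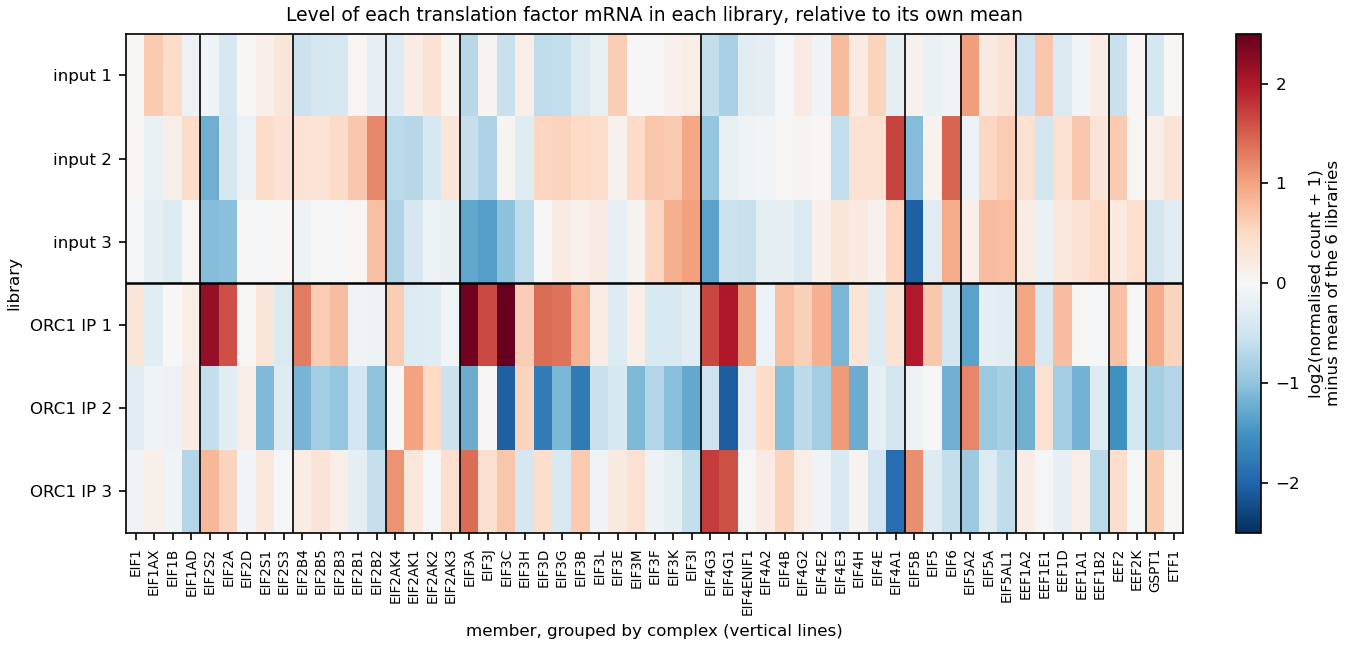
Level of each tested member in each library as log2(normalised count + 1) minus the mean of the 6 libraries, with members grouped by complex between vertical lines and a horizontal line between inputs and ORC1 IPs. The ORC1 IP 2 row is blue over most of eIF2B, eIF3 and the release factors, where the ORC1 IP 1 row is mostly red, and EIF4E3 and EIF5A2 show the reverse.

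The members together took a similar share of the counts in both groups. Of all normalised counts, they held 1.58%, 2.02% and 1.80% in the inputs, in the order of the replicates, against 2.40%, 1.22% and 1.93% in the IPs. The means were 1.80% ± 0.22 and 1.85% ± 0.59 (SD, n = 3), and the inputs lay within the range of the IPs. Within this share, EEF2 made up 28.7% ± 6.16 of the members' counts in inputs and 21.0% ± 3.11 in IPs. EIF4G1 was at 6.88%, 6.94% and 6.88% in the inputs, a narrow range, and at 19.1%, 4.66% and 19.99% in the IPs. EIF3A took 3.78% ± 1.16 in inputs and 11.4% ± 5.73 in IPs. EEF1A1 was at 3.39%, 3.73% and 3.82% in the inputs and lower in every IP, at 1.45%, 2.54% and 2.22%. EIF4G2 took 6.42% ± 2.17 in inputs and 5.79% ± 1.82 in IPs.

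Members with long coding sequences tended to have higher log2 fold changes. Over the 57 members, Spearman's rho between coding length and log2 fold change was 0.58, and it was 0.50 over the 12537 tested protein-coding genes with a coding length. The points share all 6 libraries, and genes are not independent replicates. In replicates 1, 2 and 3 the members' rho was 0.58, -0.04 and 0.63, so that replicate 2 showed no such order. Leaving out the 12 members with a near-identical copy, it was 0.59 over 45. For the length of the whole transcript rho was 0.29, and for GC content of the transcript it was -0.06, made up of 0.40, -0.60 and -0.17 in the replicates.

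When the members were ordered by coding length and split into 3 groups of 19, the shortest (342 to 963 bases) had 1 positive log2 fold change, that of EIF3J, and a median of -0.36. The middle group (978 to 1695 bases) had 7 positive values and a median of -0.09, and the longest (1755 to 4950 bases) had 14 and a median of 0.49. Protein-coding genes in the same length ranges had medians of -0.37, -0.09 and 0.39, and 29.3%, 44.2% and 72.3% of them were positive, against 5.26%, 36.8% and 73.7% of the members. EIF4G3, EIF2AK4, EIF4G1, EIF3A and EIF5B, with 4926, 4950, 4800, 4149 and 3663 coding bases, were all on the positive side, while EIF5A, EIF3K and EIF6, with 465, 657 and 738, were on the negative side. EIF3J and EIF2S2 stood apart from this order, with 777 and 1002 coding bases and log2 fold changes of 1.39 and 1.62.

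After a correction of the log2 values for GC content and coding length, chosen after seeing the data, no gene of the 12537 was called at an adjusted p under 0.05 in limma, and 2453 had an unadjusted p under 0.05. The threshold of the study was then passed by 2 members on the enriched side, EIF2S2 and EIF3J, against 6.2% of these genes, and by 3 on the other, EIF6, EIF2B2 and EIF3I, against 4.14%. The log2 fold changes of EIF4G3, EIF5B and EIF2AK4 became 0.95, 1.05 and 0.22, and those of EIF2S2 and EIF3J became 1.66 and 1.37.

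**Figure D4:**
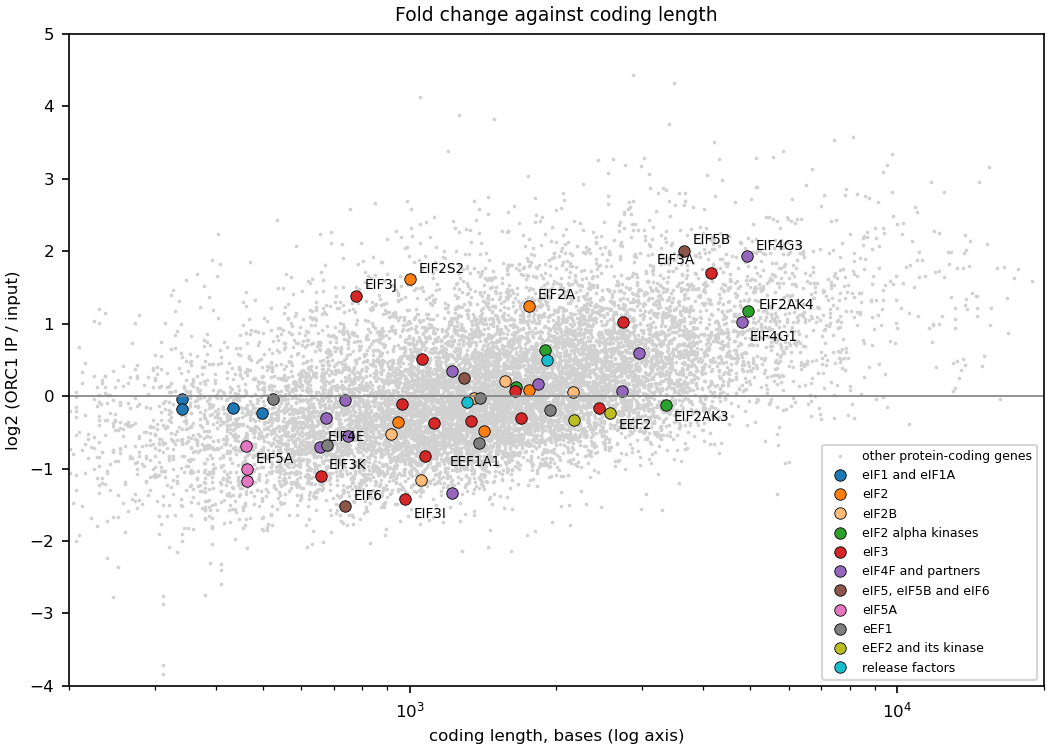
Log2 ratio of ORC1 IP to input (vertical axis) against coding length in bases (horizontal log axis) for the 57 tested members, coloured by complex, over other tested protein-coding genes in grey. Members from 1755 to 4950 coding bases have a median log2 fold change of 0.49, those from 342 to 963 bases one of -0.36, and EIF3J and EIF2S2 lie above the run of the short members.

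Many translation factor mRNAs belong to the 5′ TOP class, whose messages begin with a C and an unbroken run of pyrimidines and are controlled together through mTOR. This feature was read from 30-base windows around the RefSeq start (10 bases before it and 20 from it on, build GRCh38.p14), on the gene's own strand, for the 50 members with an entry. A tract of 5 or more was a C at the start followed by at least 4 bases that are C or T. It was present in 11 members (22.0%) and in 1429 of 35116 RefSeq promoters (4.07%). The members were counted once per gene, by the first entry listed, whereas the promoters were counted per entry and were not limited to the tested genes. These shares are therefore not like for like, and no enrichment among the members is read from them. A tract at another start of the gene, or shifted from the annotated start, was missed. Members without a tract here may thus include TOP mRNAs. For comparison, 6 members with a tract are shown first, with the tract in capitals, and then 4 without one from both ends of the fold changes.
EEF2: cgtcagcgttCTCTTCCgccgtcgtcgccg
EEF1A1: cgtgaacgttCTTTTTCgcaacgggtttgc
EIF3D: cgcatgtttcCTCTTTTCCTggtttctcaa
EIF3F: cttccgcctcCTTCTTTCTCgacaagatgg
EIF3K: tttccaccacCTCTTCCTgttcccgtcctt
EIF2A: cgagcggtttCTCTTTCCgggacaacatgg
EIF5B: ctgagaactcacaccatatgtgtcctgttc
EIF2AK4: gcccgtccccagcgcggagccccgccccgc
EIF3I: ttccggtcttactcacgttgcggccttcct
EIF6: tggtaagctggtgtgaggggaacctgggag
These windows lie at chr19:3985444-3985473 (EEF2), chr6:73521013-73521042 (EEF1A1), chr22:36529147-36529176 (EIF3D), chr11:7987327-7987356 (EIF3F), chr19:38619178-38619207 (EIF3K), chr3:150546777-150546806 (EIF2A), chr2:99337379-99337408 (EIF5B), chr15:39934105-39934134 (EIF2AK4), chr1:32222397-32222426 (EIF3I) and chr20:35284698-35284727 (EIF6). The tracts of EIF3D and EIF3F, 10 bases long, were the longest found among the members.

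Members with a tract did not share a direction. Their log2 fold changes had a median of -0.23, with 5 of 11 above 0, and ran from -1.10 in EIF3K to 1.25 in EIF2A. In the 37 tested members with a window and no tract, the median was -0.12 with 13 above 0. Of 10 tested members on a textbook list of TOP mRNAs, 3 were above 0 and the median was -0.21. No test was made of these differences.

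Genes beside the members in the control of translation were read from fixed lists. Of 34 tested genes for regulators, ribosome recycling and factor modification, 1 passed an adjusted p under 0.05 and none was called lower. This was SECISBP2 (ENSG00000187742), for the protein that directs selenocysteine to its codon, which had 946, 504 and 617 normalised counts in inputs and 2432, 2663 and 2687 in IPs. All IPs lay above all inputs, and here ORC1 IP 2 stood beside the other IPs (log2 fold change 1.96 ± 0.36, adjusted p = 0.0174, limma). Of the eIF4E-binding proteins that the symbol rule left out, EIF4EBP1 had a log2 fold change of -0.72 ± 0.42 and EIF4EBP2 one of -0.14 ± 0.62, made up of -1.25, 1.90 and -1.07 in the replicates, and EIF4EBP3, at 3.73 or less, was not tested. None of 12 mitochondrial translation factor genes was called.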

How the data were processed

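Native RIP-seq of HCT116 nuclei was measured in 3 inputs and 3 ORC1 IPs. Per the labels and the study's methods, the authors treated RNA with DNase, made stranded libraries of ribosome-depleted total RNA, used Trimmomatic for trimming, STAR for alignment to hg19 and featureCounts for counting per gene. The setting of featureCounts for strand and for reads with several matches was not given in the sources used here.

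The deposited values are a signal, gene counts divided by the authors' size factor of each library. In every library 100% of them were whole multiples of 1 step, to within 0.001 of a step, which gave back whole reads. The deposited table also holds the authors' own comparison, with its mean, log2 fold change and standard error, a test score, p-values and adjusted p-values, and none of these was used.

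Genes with a mean of at least 10 were tested on log2(value + 1) with limma 3.58.1 in R 4.3.3 (trend, 3 against 3, no block), with Benjamini-Hochberg adjustment over all 16513 and a threshold of 0.05. The log scale understates fold changes of low genes. The test was checked on simulated data. The alternatives were pseudocounts of 0.5 and 5, other filters and scalings, edgeR 4.0.16 and DESeq2 1.42.0 on recovered reads, corrections for GC content and transcript length, replicate blocks, and leaving out each library. The correction for GC content and coding length was chosen after seeing the data. Intervals were not given for single genes, since library reads are not independent molecules. SDs describe the spread between samples. In limma the variance of each gene is drawn towards that of genes at a similar level. SEs and p-values from limma therefore reflect the gene's own spread only in part.

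The labels give an input and an IP of 1 RIP replicate the same number, which pairs them. The deviations from the group mean of an input and its IP correlated across genes with r of -0.322, -0.240 and 0.215 in replicates 1, 2 and 3, and those of input 2 and ORC1 IP 1 with 0.497, so the numbers of inputs 1 and 2 are in doubt, and with them the values per replicate. The fit without a block is free of this doubt.

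Lengths, copies (genes with at least 20% of their 50-base stretches in another gene) and coordinates were those of GENCODE v44 on GRCh38, joined through the Ensembl identifiers of all 60 members, as no hg19 annotation was used here. Start windows are from RefSeq. Members, gene lists and tests were chosen with earlier results of these data known. Genes were named if they passed either threshold, stood at the top or bottom of their group, were among the 5 most abundant, were defining members of a complex or had a near-identical copy. EIF3D, EIF3F, EIF2AK1, EIF2AK2, EIF4E3 and EIF2B1, and the markers KRT8, VIL1, CD14, COL1A1, MALAT1, NEAT1 and KCNQ1OT1, were named after their values were seen.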

Additional observations from a re-analysis of the deposited data

How the results depend on the processing

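The other pseudocounts and filters and TMM scaling called no member and left 6 past the study threshold on the enriched side and 5 or 6 on the other. Scaling by total count shifted the median over all genes from 0.01 to -0.19 (log2), called 87 genes higher and 96 lower, and put 15 of 57 members above 0 with a median of -0.33. Without the trend in limma, 143 and 96 genes were called, and in DESeq2 1277 and 680. Corrected for GC content and transcript length, 127 genes were called higher and 61 lower, and with the replicate block added 3 and 6. With GC content and coding length the counts were 0 and 0 without and 0 and 0 with the block, where 2453 and 2178 genes had an unadjusted p under 0.05. There 2 members passed the study threshold on the enriched side and 3 on the other, and 3 and 2 with the block. Members called higher numbered 1 (EIF4G3) under upper quartile scaling, in edgeR and with the replicate block in limma, and 6 in DESeq2, with 3 lower. The block in edgeR called no member, and in limma it changed no call at an adjusted p under 0.05 besides that of EIF4G3. Leaving out 1 library at a time gave 6 (input 3) to 1965 (ORC1 IP 2) genes called higher and 23 (input 3, ORC1 IP 3) to 1053 (ORC1 IP 2) lower. For members it gave 0 to 9 called higher and 0 to 3 lower, the highest counts being those without ORC1 IP 2. On the enriched side of the study threshold it gave 1 (input 3), 3 (ORC1 IP 1), 4 (input 2), 5 (ORC1 IP 3), 6 (input 1) and 10 (ORC1 IP 2), and on the other 2 (inputs 2 and 3) to 7 (input 1). The share of all genes past this threshold was not taken in these fits. Of 16513 genes, 1906 (without input 3) to 5403 (without ORC1 IP 2) had an unadjusted p under 0.05 in limma, so the members' counts cannot be read alone.

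Reversed signs all belonged to log2 fold changes within 0.5 of 0, apart from EIF3C. EEF1A2 reached 0.18 in edgeR and DESeq2, 0.17 after the correction with transcript length and 0.19 with coding length, each with and without the block. EIF3B reached 0.18 in edgeR and DESeq2, GSPT1 -0.14 with transcript length, EIF2B4 -0.013 with total count, and EIF4G2 -0.15 with total count, -0.22 with transcript length and -0.55 with coding length. With coding length, EIF1 reached 0.46 and EIF1AD 0.19. Without single libraries the log2 fold changes ranged from -0.53 to 0.57 for EEF1A2, -0.66 to 0.47 for EEF2, -0.20 to 0.095 for EIF1, -0.39 to 0.074 for EIF1AD, -0.33 to 0.12 for EIF1AX, -0.36 to 0.12 for EIF2AK3, -0.39 to 0.83 for EIF2B4, -0.60 to 0.10 for EIF2S1, -0.64 to 0.68 for EIF3B, -0.16 to 2.30 for EIF3C, -0.22 to 0.41 for EIF4G2 and -0.39 to 0.26 for ETF1. The cause of these moves was not tested, and the correction with coding length was run on fewer genes. With 3 libraries a group and SEs of 0.33 to 1.45, smaller differences between the groups were not detectable.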

Other observations

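Among 34 tested regulators of translation that are no members, 6 were called higher without ORC1 IP 2, against 11.9% of all genes, and 1 lower, against 6.38%. Those called higher were SECISBP2, which was called with all libraries too, and ABCF1, LARP1, DHX29, NAT10 and PABPC4, which were not. LARP1, which binds the start of TOP mRNAs, had 6529, 7842 and 6071 normalised counts in inputs and 25383, 6307 and 19732 in ORC1 IPs, a log2 fold change of 1.12 ± 0.65 (adjusted p = 0.344, limma) and one of 1.72 without ORC1 IP 2 (adjusted p = 0.00671). DHX29, a helicase that helps ribosomes through structured leaders, had 1757, 873 and 659 in inputs and 2868, 1386 and 3727 in IPs, with a log2 fold change of 1.29 ± 0.48 (adjusted p = 0.139). MCTS1, for a factor of ribosome recycling and reinitiation, lay at the other end, with 674, 681 and 849.5 in inputs and 322, 271 and 338 in IPs, and all IPs stood below all inputs by a log2 fold change of -1.24 ± 0.33 (adjusted p = 0.0569, limma). It was the regulator called lower without ORC1 IP 2 (log2 fold change -1.14, adjusted p = 0.0265). Of the eIF4E-binding protein genes, EIF4EBP2 was called lower without ORC1 IP 2, at a log2 fold change of -1.03 (adjusted p = 0.0469). These genes were chosen after their values were seen.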
